A study of Mus musculus with 4 samples.

Results

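Strong HA-Fbxl10 peaks that were called in doxycycline-induced mouse embryonic fibroblasts, had no counterpart in non-induced cells and lay at the border of a single protein-coding gene numbered 590. They were taken from the 5497 peaks of the induced list by 3 criteria. A member overlapped no peak of the non-induced list by even 1 bp, had a peak score of at least 100, and lay within 1 kb of the start or end of exactly 1 protein-coding RefSeq gene on chromosomes 1 to 19 or X. Of the 5312 induced-only peaks 1078 had such a score (20.3%), and 590 of these met the border criterion (54.7%, exact 95% interval 51.7 to 57.7). A further 165 strong induced-only peaks lay at the borders of 2 or more coding genes and 323 at none. The members were chosen by their measured score, their lack of overlap and their place, so these values are a description and were not tested.

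The fibroblasts came from a gain-of-function mouse model whose cells overexpress Fbxl10 carrying an HA tag, a short epitope that an antibody recognises. Induced cells received doxycycline at 1 µg/ml for 48 h. Non-induced cells carried the same transgene and received none, and each state had 1 HA ChIP library and 1 input library, 4 in all. The protocol speaks of 3 independent samples, but 1 peak list per state was used here, with a relation to those samples not given in the sources used here. There was therefore no replicate check, read depth is unknown, and every interval below is an exact 95% interval that covers counting error only. Neither the promoter that drives the transgene nor the number of embryos behind the cells is stated by the labels. Peak lists hold no RNA levels, so the cell type could not be checked against expressed markers, and the antibody detects the tagged protein, not the cells' own Fbxl10.

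Fbxl10, also named KDM2B, carries a CXXC zinc finger that binds DNA containing unmethylated CpG, the dinucleotide of cytosine followed by guanine. It also has a JmjC domain that removes methyl groups from lysine 36 of histone H3, and an F-box. In cells it recruits the variant Polycomb complex PRC1.1, which contains PCGF1, BCOR and a RING1 protein and ubiquitinates histone H2A, to CpG islands. In mouse fibroblasts the protein is known for delaying senescence through repression of the Cdkn2a and Cdkn2b locus.

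The promoters below belong to the 6 highest-scoring members that covered a whole promoter window, and are shown because they display how much CpG sequence lay under the strongest peaks. Each runs from 250 bases before to 50 after the annotated start site, 5′ to 3′ on the gene's own strand, with each CpG in capitals, from RefSeq build GRCm38.p6, whose coordinates are those of mm10. The windows are chr14:11553303-11553602 on the plus strand for Ptprg, chr3:87970843-87971142 plus for Nes, chr17:72918055-72918354 plus for Lbh, chr10:99262981-99263280 plus for Dusp6, chr14:54577612-54577911 minus for Ajuba and chr12:31499567-31499866 minus for Cbll1.
Ptprg: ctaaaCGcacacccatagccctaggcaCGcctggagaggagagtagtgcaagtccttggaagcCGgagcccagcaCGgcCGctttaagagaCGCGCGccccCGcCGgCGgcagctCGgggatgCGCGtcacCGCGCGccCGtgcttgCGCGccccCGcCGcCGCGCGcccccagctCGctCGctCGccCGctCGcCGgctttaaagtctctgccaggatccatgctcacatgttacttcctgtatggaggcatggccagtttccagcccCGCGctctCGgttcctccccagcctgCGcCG
Nes: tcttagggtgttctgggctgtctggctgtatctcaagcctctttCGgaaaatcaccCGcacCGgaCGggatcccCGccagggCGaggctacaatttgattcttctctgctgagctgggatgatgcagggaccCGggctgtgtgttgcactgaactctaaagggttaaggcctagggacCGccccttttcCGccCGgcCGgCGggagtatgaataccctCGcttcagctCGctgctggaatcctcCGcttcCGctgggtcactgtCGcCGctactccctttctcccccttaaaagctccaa
Lbh: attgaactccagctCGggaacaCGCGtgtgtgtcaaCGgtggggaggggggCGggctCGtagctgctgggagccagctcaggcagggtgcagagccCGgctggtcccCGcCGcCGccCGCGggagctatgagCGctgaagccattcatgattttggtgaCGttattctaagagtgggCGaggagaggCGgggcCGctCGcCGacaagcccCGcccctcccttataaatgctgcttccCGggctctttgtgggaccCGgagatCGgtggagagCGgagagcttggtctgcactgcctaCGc
Dusp6: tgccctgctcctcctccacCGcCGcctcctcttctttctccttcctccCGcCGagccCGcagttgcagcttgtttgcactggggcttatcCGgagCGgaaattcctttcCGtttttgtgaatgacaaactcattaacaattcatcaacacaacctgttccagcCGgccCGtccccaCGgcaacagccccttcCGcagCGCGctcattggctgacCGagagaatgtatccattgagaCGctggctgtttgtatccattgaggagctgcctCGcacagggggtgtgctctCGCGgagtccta
Ajuba: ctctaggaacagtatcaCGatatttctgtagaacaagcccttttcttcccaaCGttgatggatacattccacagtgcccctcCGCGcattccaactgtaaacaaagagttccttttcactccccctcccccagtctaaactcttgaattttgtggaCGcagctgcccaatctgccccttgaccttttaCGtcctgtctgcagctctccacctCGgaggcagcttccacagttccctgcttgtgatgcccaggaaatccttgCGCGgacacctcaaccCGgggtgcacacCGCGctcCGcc
Cbll1: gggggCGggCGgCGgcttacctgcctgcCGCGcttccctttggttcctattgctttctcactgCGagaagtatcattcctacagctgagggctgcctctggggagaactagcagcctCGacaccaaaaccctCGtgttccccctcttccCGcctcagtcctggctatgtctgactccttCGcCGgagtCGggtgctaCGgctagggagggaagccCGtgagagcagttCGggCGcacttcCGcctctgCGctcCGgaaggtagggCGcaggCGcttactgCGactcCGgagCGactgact

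These windows held 36 CpG for Ptprg, 18 for Nes, 25 for Lbh, 19 for Dusp6, 13 for Ajuba and 24 for Cbll1, against a median of 14 over all 17274 promoters in the table. The lowest of them, that of Ajuba, was thus just under the median of all promoters and the other 5 lay above it. A contrasting promoter, chosen after its value was seen, is that of Il1rl2, a receptor of the interleukin-1 family. It held 3 CpG, the fewest of the 226 promoters that a member covered whole, at chr1:40324339-40324638 on the plus strand.
Il1rl2: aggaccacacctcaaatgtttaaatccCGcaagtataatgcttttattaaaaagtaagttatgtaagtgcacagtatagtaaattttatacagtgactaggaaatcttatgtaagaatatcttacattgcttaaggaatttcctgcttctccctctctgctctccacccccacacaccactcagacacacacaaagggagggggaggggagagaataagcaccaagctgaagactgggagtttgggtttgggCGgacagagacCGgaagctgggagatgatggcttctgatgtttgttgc

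The Il1rl2 peak nevertheless scored 155.12 and spanned 1299 bp. Among the 226 covered promoters the CpG number ran from 3 to 44 with a median of 25, and 6 held fewer than 10.

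The score is the value that the authors' caller gave each peak, and the labels do not state its formula. Members scored between 100.23 and 404.23, with a median of 127.89 (124.63 to 131.8) and quartiles of 111.4 and 159.1. Most lay close to the limit, since 182 reached 150, 68 reached 200 and 11 reached 300. Just inside the limit were Dlx2 at 100.23, Adgrl1 at 100.32 and Zdhhc18 at 100.39. Just outside were Ptges3 at 99.9, Tmem37 at 99.89 and Abhd2 at 99.88, which met the rest of the criteria. Members spanned 325 to 3305 bp with a median of 1158 bp (1134 to 1183), and 26 were wider than 2 kb. Weaker induced-only peaks at 1 border, with scores from 50.02 to 99.9, numbered 1452 and had a median width of 758 bp. The 165 strong peaks at several borders had a median score of 137.54 and a median width of 1144 bp. Within the members, Spearman's rho of score and width was 0.505 over 590 peaks, both values coming from the same peak call.

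**Figure D1:**
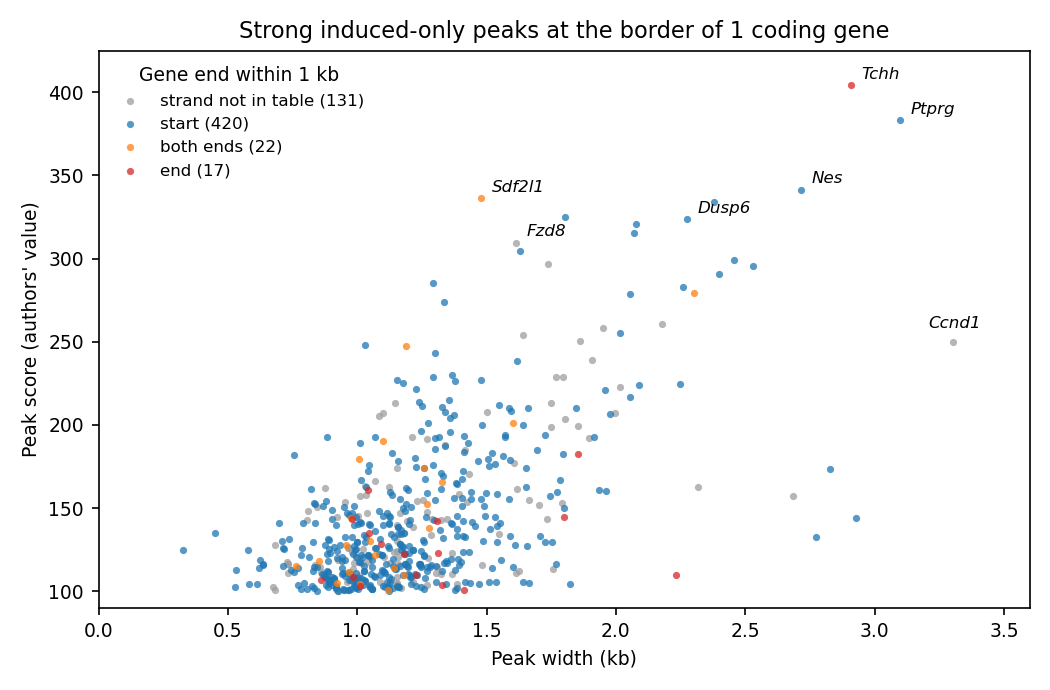
Peak score against peak width in kb, both on linear axes, for the 590 members, 1 point per peak, coloured by the gene end within 1 kb and with 7 peaks labelled. Scores range from 100.23 to 404.23 and widths from 325 to 3305 bp, and the highest scores belong to peaks over 1 kb wide.

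The highest score, 404.23, belonged to a peak of 2910 bp at chr3:93445233-93448142. It lay inside Tchh, the gene of trichohyalin, a structural protein of hair follicles, and ended 935 bp short of the gene's 3′ end. Its midpoint was 4357 bp downstream of the start site, and the Tchh promoter held 1 CpG. Another induced peak at the gene scored 148.45. Next came Ptprg, a receptor tyrosine phosphatase, with 383.11 over 3098 bp, and Nes, the intermediate filament nestin, with 341.55 over 2715 bp. Sdf2l1, a chaperone cofactor of the endoplasmic reticulum, scored 336.41, and Lbh, a transcription cofactor of limb and heart development, 333.84. B3gnt2, a glycosyltransferase that builds poly-N-acetyllactosamine chains, scored 325.2. Dusp6, a phosphatase that inactivates ERK kinases, reached 323.91, and Ajuba, a LIM protein of cell junctions and Hippo signalling, 320.86. Cbll1, the ubiquitin ligase HAKAI, scored 315.42, Fzd8, a Wnt receptor, 309.57, and Arntl2, a circadian transcription factor, 304.52.

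From rank 12 to rank 20 the scores ran from 299.25 to 274.04. This stretch held the adenosine receptor Adora2b at 299.25, the adenylate cyclase Adcy8 at 296.92, and Fhdc1, a formin-related protein, at 295.66. Nab2, a corepressor of EGR factors, stood at 290.71, Urgcp at 285.18, and Fat4, a giant protocadherin of planar polarity, at 283.09. Hoxa7, a homeobox gene of the body axis, had 279.53, Tob2, an antiproliferative protein of mRNA decay, 278.82, and Etnk1, an ethanolamine kinase, 274.04. Of these 20 peaks 15 lay within 1 kb of the start of the gene only, 2 of both ends and 1 of the 3′ end only. The other 2 belonged to genes without strand in the promoter table. Their widths ran from 1293 to 3098 bp with a median of 2169.5 bp, and 13 covered the whole promoter window.

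The widest member was that of Ccnd1, the gene of cyclin D1, with 3305 bp and a score of 249.65. Ptprg followed with 3098 bp and Hspa2, a heat shock protein of the HSP70 family, with 2930 bp at a score of only 144.29. The narrowest were at the GTPase gene Rit1 with 325 bp, the corepressor gene Sin3a with 450 bp, and Egln1, a prolyl hydroxylase of oxygen sensing, with 527 bp. Their scores were 124.66, 135.09 and 102.45, so a narrow peak was not always among the lowest-scoring ones.

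The rule allowed either end of a gene, and members lay mostly at starts. Strand and start site came from the RefSeq promoter table, which matched 448 of the 576 member genes (77.8%), too few for a description over all chromosomes. The table held no promoter on chromosome 18, where 25 members lay, and outside it 448 of 552 member genes matched (81.2%), beside 81.8% of all coding genes. Every value on strand, start sites or promoter sequence below is therefore for genes outside chromosome 18, a restriction set after the table was seen. Among these members 420 lay near the start only, 17 near the end only and 22 near both, the last in genes of 549 to 2951 bp. Of those 22, 7 lay in a run of interferon-like genes on chromosome 4, some of which share long identical stretches, so that reads of 1 copy can be placed at another. The start took 96.1% of the 437 peaks at 1 end (93.8 to 97.7). In the weaker induced-only peaks it took 94.9% (93.4 to 96.1), an interval that overlaps that of the members. In the 271 non-induced-only peaks at 1 border it took 48.6% (41.7 to 55.5), 104 of 214.

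Members covered the annotated start site itself in 294 of 459 cases (64.1%, 59.5 to 68.4). Weaker induced-only peaks did so in 45.5% (42.6 to 48.4) and non-induced-only peaks in 5.88% (3.17 to 9.85), beside median widths of 758 and 587 bp. Wider peaks cover more sequence, and the part of width in this order was not tested. Midpoints depend less on width, and 83.7% of members had theirs within 1 kb of a start site, against 81.8% and 30.8%. The whole 300-base promoter window lay under 49.2% of members, 29.7% of weaker peaks and 3.62% of non-induced-only peaks.

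**Figure D2:**
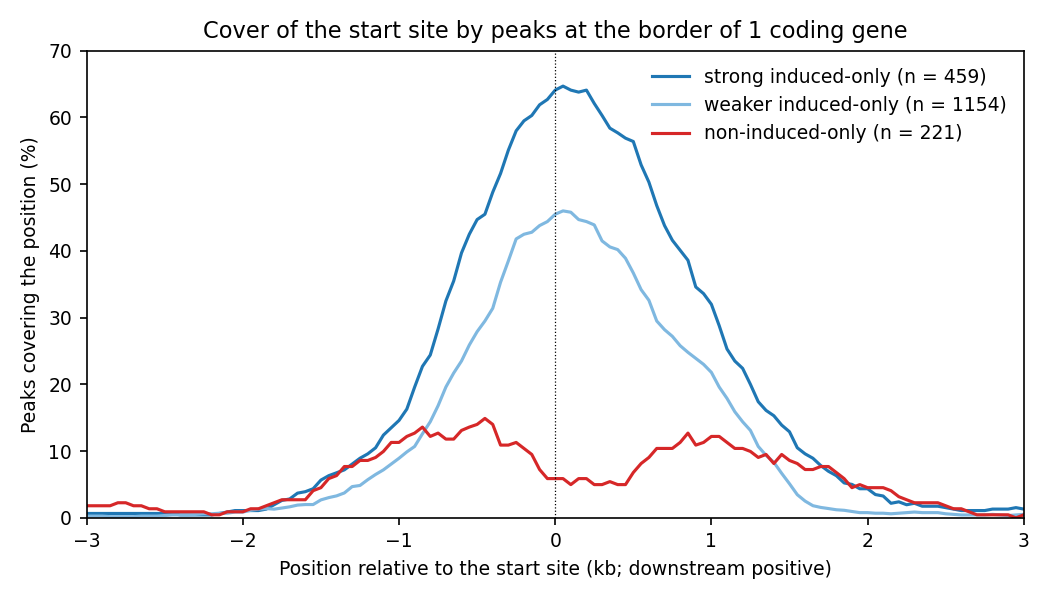
Share of peaks in percent that cover each position around the annotated start site, in kb with downstream to the right, for members (n = 459), weaker induced-only peaks (n = 1154) and non-induced-only peaks (n = 221) at 1 border. Members peak at 64.7% at +50 bp and fall to 14.6% at -1000 bp and 32.0% at +1000 bp, whereas the non-induced-only curve stands at 5.88% at the start site.

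Cover by members was asymmetric around the start site. At 1000 bp upstream 14.6% of members covered the position and at 1000 bp downstream 32.0%, and at 500 bp the shares were 44.7% and 56.4%. The midpoint lay a median of 152 bp downstream of the start site (57 to 209), with quartiles of -260.5 and 540.5 bp, where a minus sign means upstream. In classes, 26 midpoints were over 1000 bp upstream, 90 between 1000 and 250 bp upstream, 146 within 250 bp, 148 between 250 and 1000 bp downstream, and 49 farther downstream. The weaker peaks had a like median of 129 bp (78 to 162). Over all 590 members, outside and on chromosome 18, 68.3% of midpoints lay inside the gene (64.4 to 72.0), against 64.8% of the weaker and 46.9% of the non-induced-only peaks. Ddit4 at -49 bp, Junb at 4 bp and Rab10 at 4 bp were centred on the start site, while Jag1 at -819 bp lay upstream and Fosb at 1232 bp downstream. For some genes the table's start site is far from the border that the peak marks, as in Arntl2, whose midpoint lay at -9682 bp.

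Promoters of member genes were rich in CpG. The median was 24 CpG per 300 bases (23 to 25) in the 448 member promoters, with quartiles of 17 and 30 and a range from 0 to 60. It was 23 for genes of weaker induced-only peaks, 24 for genes of strong peaks at several borders, 8 (5 to 12) for genes of non-induced-only peaks, 11 for genes with none of these peaks, and 14 (13 to 14) for all. The median GC content was 63.7% in members, 63.3% for genes of weaker peaks, 62.3% for strong peaks at several borders, 51% for non-induced-only peaks, 55.3% for genes with none and 56.3% for all. Egln1, which has 60 CpG, was at the upper end and Gp5, a platelet glycoprotein gene with 0, at the lower.

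Read the other way, 34 of 7273 promoters with fewer than 10 CpG belonged to a member gene (0.467%, 0.324 to 0.653) and 414 of 10001 with 10 or more (4.14%, 3.76 to 4.55), beside 2.59% of all 17274. The share was 0.265% at 0 to 4 CpG, 0.885% at 5 to 9, 2.27% at 10 to 14, 3.9% at 15 to 19 and 4.23% at 20 to 24. It stood at 5.9% (4.81 to 7.14) at 25 to 29, 4.46% (3.55 to 5.53) at 30 to 39 and 4.14% (2.9 to 5.71) at 40 or more, and these last 3 intervals overlap. Genes of non-induced-only peaks made up 0.678% to 1.71% of the same classes, with the highest share at 0 to 4 CpG. Within the members, score and CpG number had a Spearman's rho of -0.012 over 459 peaks, of which some share a gene.

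**Figure D3:**
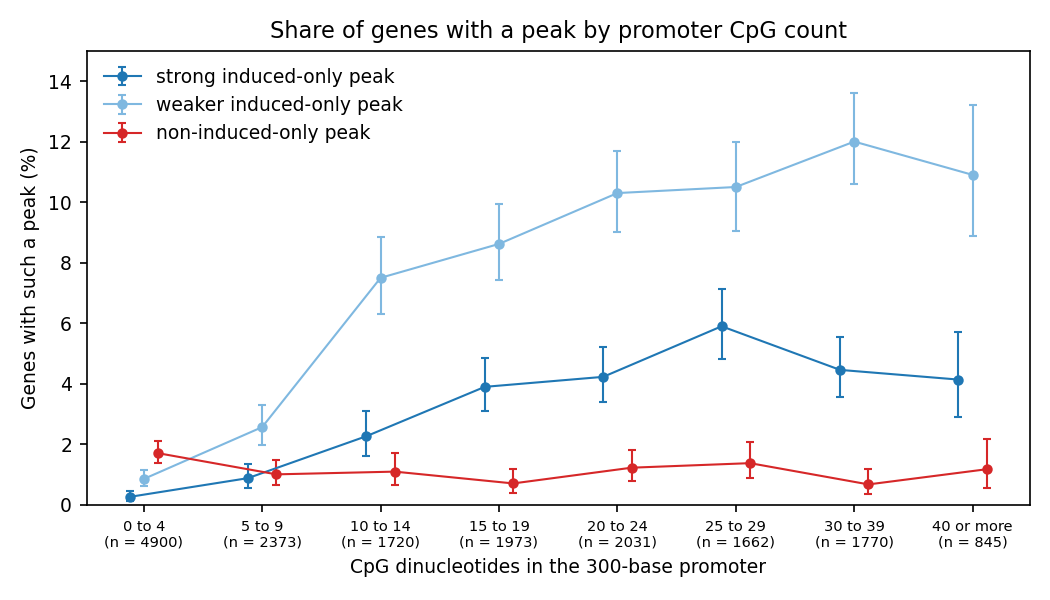
Share of promoters in percent whose gene holds a peak, by number of CpG in the 300-base promoter, for members, weaker induced-only peaks and non-induced-only peaks at 1 border, with exact 95% intervals as bars. Members rise from 0.265% at 0 to 4 CpG to 5.9% at 25 to 29, and non-induced-only peaks stay between 0.678% and 1.71%.

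Short motifs of general promoter factors were counted on both strands of the windows. A match is a description of letters, not a bound site. The GC box core GGGCGG was present in 70.1% of member promoters and 46.9% of all, TGCGCA (an NRF1-like core) in 16.3% and 10.1%, CGGAAG (ETS-like) in 29.9% and 21.8%, and TGACGT (CRE-like) in 12.1% and 8.81%. All of these letters include CG, so their shares move with CpG number. ATGGCGG (YY1-like), which shares GGCGG with the GC box core, was in 6.7% and 5.49%, and the E-box CACGTG in 8.93% and 8.01%. CCAAT, which has no CG, was in 40.4% of member promoters and 39.6% of all. The TATA box letters TATAAA were in 7.14% and 13.4%, against 19% in genes of non-induced-only peaks. Shares close to those of members were found in genes of weaker induced-only peaks. There GGGCGG was in 72.4%, TGCGCA in 15.1%, CGGAAG in 28.9%, TGACGT in 11.8% and TATAAA in 6.97%.

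Limited to promoters with 10 or more CpG, the shares in members and in all promoters lay closer together for 5 of the 8 motifs. GGGCGG was then in 74.4% of 414 member promoters and 72.6% of all 10001, TGCGCA in 17.6% and 16.1%, CGGAAG in 31.4% and 32.9%, TGACGT in 12.8% and 12.6%, and TATAAA in 7.25% and 5.7%. The other motifs lay farther apart than before, CCAAT at 41.8% and 38.1%, CACGTG at 9.18% and 11.3%, and ATGGCGG at 6.52% and 8.76%. For strong peaks at several borders CGGAAG was in 47.2% of such promoters (40.8 to 53.6). For weaker induced-only peaks CGGAAG was in 30.6% of them and GGGCGG in 77.7%. In the 6 member promoters printed first, Lbh held 3 GGGCGG matches, 1 TGACGT and 1 TATAAA. Nes and Cbll1 held 2 GGGCGG each, and Ptprg, with the most CpG, held none of the 8 motifs.

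The 590 members marked 576 genes, which is 2.66% of the 21631 coding genes. Against that background 37 gene lists were counted, of which the members per list are descriptions and were not tested. The lists were chosen with earlier results of these data known, and a gene with a neighbour within 1 kb could not easily carry a member, since the rule asks for exactly 1 gene. Another coding border lay within 1 kb in 11.8% of member genes and 25.1% of all. Member genes had a median length of 23634 bp (20788 to 27908), against 17329 bp for all coding genes and 24769.5 bp for genes of weaker peaks.

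The counts per list depend on the score limit, as do those over all genes, 0.841% of which held a peak at a limit of 150 and 4.82% at 75. At these limits the counts were 7 and 16 for immediate early and stress factors (13 at 100), 6 and 25 for developmental transcription factors (17), 3 and 14 for Wnt and Notch genes (12), and 0 and 11 for Forkhead and Sox factors (6). They were 1 and 15 for receptor tyrosine kinase genes (8), 0 and 8 for TGF-beta, BMP and hedgehog genes (5), 0 and 7 for axon guidance genes (4), 3 and 9 for chaperones (6), 2 and 9 for splicing factors (6), 3 and 10 for fibroblast genes (5), and 2 and 4 for glycolysis genes (4).

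**Figure D4:**
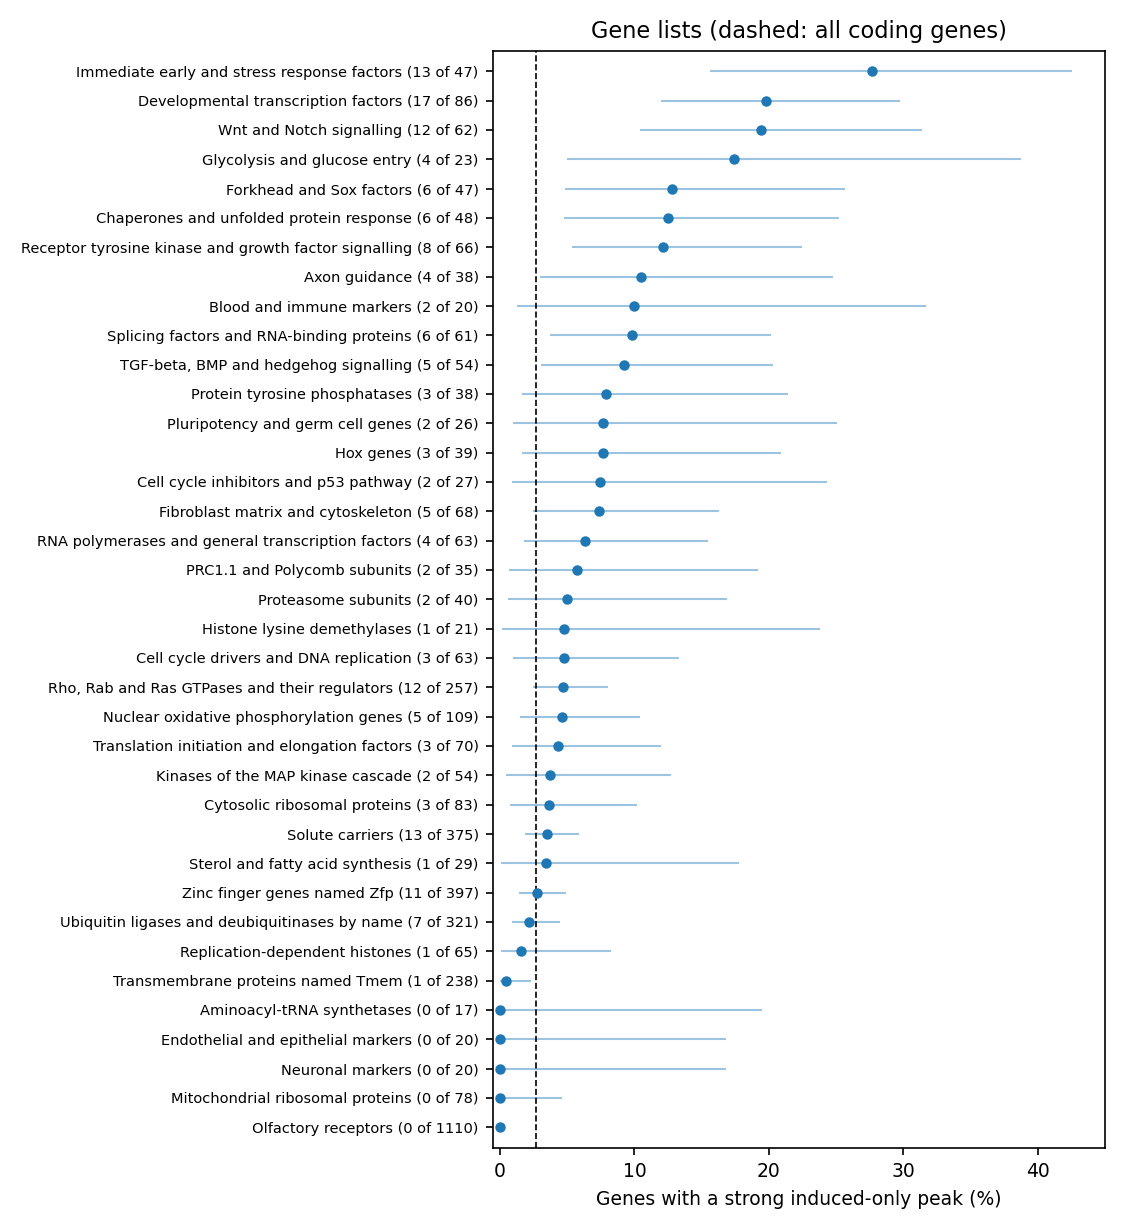
Share of genes in percent that hold a member, by gene list, with exact 95% intervals as bars and the 2.66% of all coding genes as a line. Immediate early and stress response factors stand at 27.7% (13 of 47) and developmental transcription factors at 19.8% (17 of 86), while 0 of 1110 olfactory receptors hold one.

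Immediate early and stress response factors, transcription factors and regulators many of which cells switch on within minutes of a stimulus, held members at 13 of 47 genes (27.7%, 15.6 to 42.6). Their median score was 157.11, beside 127.89 over all members. The highest were Zfp36l2, an RNA-binding protein that destabilises mRNA, at 250.24, Ddit4, an inhibitor of mTORC1, at 230.05, Ccn1, a matricellular protein, at 211.33, and Klf10, a TGF-beta-inducible repressor, at 191.4. Atf3 stood at 188.99, Jun at 161.31, Myc at 157.11 and Egr3 at 130.43. The other AP-1 genes lay lower, with Jund at 129.52, Fosb at 128.57, Junb at 109.63 and Fosl2 at 107.71, and Klf6 was just above the limit at 100.97. A further 5 of the 47 genes had only a weaker induced-only peak, beside 1368 of all 21631 coding genes. A non-induced peak lay at a border of 0 of the 47, where 1.6% of all coding genes had one.

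Developmental transcription factors, which set cell identity in the embryo and are classic Polycomb targets, held members at 17 of 86 genes (19.8%, 12 to 29.8). Their median score was 126.19. A non-induced peak lay at a border of 4 of the 86, where 1.6% of all coding genes had one. Hand2, a bHLH factor of heart and limb, had 182.37 near its 3′ end, with the midpoint 2089 bp past the start site. Nkx3-2, a homeobox factor of cartilage, had 173.99 within 1 kb of both ends and Snai1, a repressor in epithelial-mesenchymal transition, 169.42 at the start. Further members were Wt1, Tbx3, Tbx20, Twist2, Pax6, Meis2, Gata6, Lmx1b, Tbx2, Prrx1, Meis1, Eya1 and Dlx2, from 154.88 down to 100.23. The count fell to 9 with a border window of 500 bp and to 8 when the distance was taken from the midpoint.

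Forkhead and Sox factors held members at 6 of 47 genes (12.8%, 4.83 to 25.7). Foxq1 had 147.24, Foxa1 128.38 and Foxl2 122.76, the latter pair at or near the 3′ end, and Sox6 had 125.84 at the start. Hox genes held members at 3 of 39 (7.69%, 1.62 to 20.9), namely Hoxa7 at 279.53, Hoxd11 at 151.0 and Hoxc5 at 120.53. Another coding border lay within 1 kb in 8 of the 39, beside 25.1% of all coding genes. The count of Hox genes with a member was 1 with a 2 kb window and 6 with a score limit of 75. A non-induced peak lay at a border of 6 of the 39, where 1.6% of all coding genes had one.

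Wnt and Notch genes held members at 12 of 62 (19.4%, 10.4 to 31.4), with a median score of 125.14. The count was 8 with a border window of 500 bp and 8 when the distance was taken from the midpoint. A non-induced peak lay at a border of 4 of the 62, beside 1.6% of all coding genes. Among ligands, Jag1, which activates Notch, had 193.9, Wnt11 132.77, Wnt10b 121.9 and Dll4 113.6. Among receptors, Fzd8 had 309.57, Fzd2 157.33, Fzd7 128.03, Notch1 122.25 and Notch2 105.62. Downstream, the transcription factors Lef1 and Tcf7l1 had 133.11 and 101.72, and the Notch-modifying glycosyltransferase Lfng had 114.52. Peaks thus lay at ligands, receptors and nuclear effectors alike, with the highest at a receptor gene.

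Receptor tyrosine kinase and growth factor genes held members at 8 of 66 (12.1%, 5.38 to 22.5). Feedback inhibitors of the pathway were among them, with Dusp6 at 323.91, Spry2 at 146.86 and Dusp1 at 107.02. The receptors Egfr and Epha4 had 141.11 and 126.8, the adaptor Irs2 130.41, and the ligands Vegfa and Fgf10 114.75 and 108.47. TGF-beta, BMP and hedgehog genes held 5 of 54 (9.26%, 3.08 to 20.3), from the ligand Gdf6 at 135.04 and the BMP antagonist Grem1 at 116.83 to the inhibitory Smad6 at 109.54 and the hedgehog transducer Smo at 109.51, and the count was 2 with a 500 bp window or with midpoint distances. Axon guidance genes held 4 of 38 (10.5%, 2.94 to 24.8), with the receptors Nrp1 at 140.76, Neo1 at 132.32 and Plxna2 at 118.79 and the ligand Sema3c at 107.04. Protein tyrosine phosphatases held 3 of 38 (7.89%), with Ptprm at 133.42 and Ptpn12 at 104.51 after Ptprg, and 1 with midpoint distances.

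Glycolysis genes held members at 4 of 23 (17.4%, 4.95 to 38.8). They were Gpi1 at 210.83, Pfkl at 150.73, Gapdh at 137.0 and Pkm at 118.07, enzymes from the second step of the pathway to the last. Chaperones and genes of the unfolded protein response held 6 of 48 (12.5%, 4.73 to 25.2), with a median score of 169.035. Sdf2l1 led at 336.41, followed by Dnajb1, an HSP40 cochaperone, at 223.74, and Syvn1 and Herpud1, both of endoplasmic-reticulum-associated degradation, at 193.06 and 145.01. Splicing factors and RNA-binding proteins held 6 of 61 (9.84%, 3.7 to 20.2), with Snrnp70 of the U1 particle at 203.97, Srsf3 at 200.13 and Srsf1 at 142.68.

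Genes of the protein's own complexes and of its best-known target locus were also looked up. Kdm2b itself had 0 induced peaks, and the nearest lay 68.5 kb away with a score of 52.95. Polycomb genes held members at 2 of 35 (5.71%, 0.7 to 19.2), Suz12 of PRC2 at 183.0 and Pcgf1, the defining subunit of PRC1.1, at 176.87, and histone demethylases at 1 of 21, Kdm3a at 161.93. Among 27 cell cycle inhibitors and p53 pathway genes 2 held members. Cdkn2b, the gene of p15, had a peak of 138.88 over its start site. The member at Cdkn2a, the gene of p16 and p19, scored 109.85 at the 3′ end, 8216 bp from the table's start site. Another induced peak at Cdkn2a scored 79.05. Cell cycle drivers held 3 of 63 (4.76%), Ccnd1 at 249.65, Rb1, which is itself an inhibitor of G1 progression, at 150.5 and Bub1 of the spindle checkpoint at 140.86.

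Fibroblast matrix and cytoskeleton genes held members at 5 of 68 (7.35%, 2.43 to 16.3), with Nes at 341.55, Thbs1 at 207.21, Tpm1 at 185.06 and Thy1 at 114.75. A further 17 of the 68 had only a weaker induced-only peak, beside 1368 of all 21631 coding genes. That number was 2 of 20 for endothelial and epithelial markers. It was 0 of 20 for neuronal markers, 0 of 20 for blood markers and 0 of 26 for pluripotency genes. These lists are too short to tell such counts from the share over all coding genes. For other cell types, 2 of 20 blood and immune markers (Klf1 at 122.41 and Cd14 at 110.42) and 2 of 26 pluripotency and germ cell genes (Klf5 at 114.73 and Sox2 at 114.23) held a member. Neuronal markers held 0 of 20, as did endothelial and epithelial markers, and each count allows a share of up to 15%. Such markers describe genes, not the cells present.

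Several further lists had intervals that included the background of 2.66%. So did the earlier lists of Hox, Polycomb, histone demethylase, protein tyrosine phosphatase and fibroblast genes. The lists of cell cycle drivers, of cell cycle inhibitors and p53 pathway genes, and of markers of other cell types also did. Members were found at 13 of 375 solute carriers (3.47%), 11 of 397 genes named Zfp (2.77%), 7 of 321 ubiquitin ligases and deubiquitinases (2.18%), 3 of 83 cytosolic ribosomal proteins (3.61%) and 12 of 257 small GTPases and their regulators (4.67%, 2.44 to 8.01). Among them Zfp503, a repressor of the NET family, had 226.23, Rab10, a GTPase of exocytosis, 224.38, Rpl37a 200.91, and Slc66a2 192.22. Nuclear oxidative phosphorylation genes held 5 of 109 (4.59%), RNA polymerase and general factors 4 of 63 (6.35%), translation factors 3 of 70 (4.29%), MAP kinase cascade genes 2 of 54 (3.7%), proteasome subunits 2 of 40 (5.0%) and sterol and fatty acid genes 1 of 29 (3.45%).

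At the low end, 1 of 238 Tmem genes held a member (0.42%, 0.0106 to 2.32). Only a weaker induced-only peak at 1 border lay at 24 of the 238, and at 1368 of all 21631 coding genes. The Tmem count was 8 at a score limit of 75. Another coding border lay within 1 kb in 88 of the 238, beside 25.1% of all coding genes. Mitochondrial ribosomal proteins held 0 of 78, which allows up to 3.85%. Of those 78 genes 44 had another coding border within 1 kb. Aminoacyl-tRNA synthetases held 0 of 17, up to 17.6%. In 65 histone genes the single member was H1f0 at 112.88, a linker histone gene that is not replication-dependent, and 43 of the 65 had another border within 1 kb. Olfactory receptors held 0 of 1110, which allows up to 0.27%. A non-induced peak lay at a border of 31 of the 1110, beside 1.6% of all coding genes.

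Member genes carried non-induced border peaks about as often as all coding genes (1.56% and 1.6%). The rule removed every overlap with a non-induced peak, which lowers these counts by construction. The nearest non-induced peak was a median of 126 kb away (115 to 157), against 133 kb for the weaker induced-only peaks, and 9 members (1.53%) had one within 1 kb, 47 (7.97%) within 10 kb and 248 (42.0%) within 100 kb. The closest were at Pip4k2a with 91 bp, 2610318N02Rik with 123 bp, Lmx1b with 155 bp and Trim59 with 207 bp, and these neighbouring peaks scored 55.11 to 58.41. The share of 1.56% is 9 of the 576 member genes. Of all 10345 non-induced-only peaks 317 were strong (3.06%). Of these 317, 19 lay at the border of exactly 1 coding gene (5.99%), where 54.7% of the 1078 strong induced-only peaks did. Scores of the lists were set at the same limit without a test of a common scale.

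Other induced peaks lay at or inside 112 of the 576 member genes (19.4%, 16.3 to 22.9). This share was not counted for all coding genes or for genes of weaker peaks, so it has no background here. Member genes were also longer than all coding genes, with medians of 23634 and 17329 bp. In 12 genes a pair of induced peaks were both members, and in Adm, the gene of the vasodilator peptide adrenomedullin, 3 were, with scores of 192.56, 103.43 and 142.44. The 14 neighbouring pairs were chosen after their values were seen. Their gaps ran from 61 to 4280 bp with a median of 559.5 bp, and 13 were under 2 kb. The annotated start site fell in the gap in 4 pairs (Adm, Hes7, Mtarc2 and Twist2), under 1 of the peaks in 6 and elsewhere in 1, and 3 pairs had no strand. Ccnd1 had a second member of 107.22 that ended 776 bp before its widest one, and Cited2, a CBP-binding coactivator, had 122.38 and 148.93 at 276 bp apart.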

How the data were processed

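ChIP-seq peak lists of HA-tagged Fbxl10 from induced and non-induced mouse embryonic fibroblasts were used, 1 list per state. Per the labels' protocols, an enzymatic kit fragmented the chromatin, and 5 µg of HA antibody was used on 7 µg. The tool Bowtie2 and the build mm10 were used, per the submitters' processing notes, which give no version or role. Peak names in the files carry the name of MACS, with its version, threshold and use of input, pooling of samples and handling of reads with several matches not given in the sources used here. Each deposited score was used only as the authors' value, to rank and filter peaks. The lowest score was 50 in the induced list and 50.01 in the non-induced list. The lists hold no counts, so depth is unknown, and the input libraries were not used here. Lists were assigned to states by the marks for with and without in their names and in the library titles.

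Overlap was counted from 1 bp in Python, and the number of shared induced peaks was checked against bedtools 2.31.1. A border is the start or end of a protein-coding gene in the RefSeq gene table of GRCm38.p6, without strand, within 1000 bp. Strand, start site and 300-base promoter came from the RefSeq promoter table of the same build, matched by gene ID. Intervals at 95% are exact Clopper-Pearson intervals for shares and order-statistic intervals for medians. Where a count was 0 the limit given is 3 counts over the total. No test was made, since 1 list per state gives no replicates and the members were chosen by score, overlap and place. The members and the gene lists were chosen with earlier results of these data known. By rule the text names the 20 highest-scoring members, the 3 widest and 3 narrowest, up to 4 members per gene list, the 3 peaks on each side of the score limit, and Kdm2b. Some genes that the rule takes are left out of the text. Other genes, among them the further members of a described list, were named after their values were seen. Alternatives were score limits of 75 and 150, a required overlap of 50% (shorter peak), peaks up to 1 kb apart counted as shared, border windows of 500 bp and 2 kb, and distances from the midpoint. Omission of a run of interferon genes was added after the data were seen. The scripts were checked on simulated data. Software was SciPy 1.17.1, pandas 2.3.3 and numpy 2.4.6 under Python 3.11.15, with figures by matplotlib 3.10.9.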

Additional observations from a re-analysis of the deposited data

How the results depend on the processing

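With a score limit of 150 there were 182 members at 182 genes (0.841% of coding genes), with a median score of 185.31, a median width of 1413 bp and 80.1% covering a start site. With a limit of 75 there were 1069 at 1043 genes (4.82%), with 103.57, 1011 bp and 58.1%, and these genes included all 576. A border window of 500 bp left 49.4% of strong induced-only peaks at exactly 1 border, 70.3% covering a start site and 2.44% of genes, with 502 of its 527 genes shared. A window of 2 kb gave 59.5% covering a start site, with 537 of its 601 genes shared. Distances from the midpoint gave 47.5%, 71.7% and 2.35%, with 479 of 508 genes shared. These settings change which peaks are members by construction. In the other 56 comparisons of main values with an alternative the value stayed within its interval or within 1.5 times its count. Counts per gene list stayed within that limit in 199 comparisons and moved in 60, and omission of the interferon genes, run for 5 values (number of members, median score and width, share covering a start site and median CpG), moved none of these 5 past those limits.

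No paired analysis was possible because each state has 1 list, so no replicate was left out. Unknown depth, an unstated peak threshold and single lists limit all values, and signal under the threshold of the non-induced list was not seen here.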

Other observations

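A run of interferon-zeta-like genes on chromosome 4, from 88754868 to 88808380, held 8 of the 590 members at 8 of its 15 coding genes. The run was chosen after its values were seen. Scores were 190.6 at Gm13283, 179.64 at Gm13290, 143.95 at Gm13272, 121.91 at Gm13288, 118.31 at Gm13275, 109.49 at Gm13287, 105.12 at Ifnz and 104.32 at Gm13285. An induced peak lay at a border of 12 of the 15 genes and a non-induced peak at 0. Of the 28 pairs among the 8 member promoters, 12 shared a stretch of at least 100 identical bases, up to the whole 300, whereas the median over the pairs was 9 bases, so the copies fall into like and unlike ones. Reads from like copies can be placed at the wrong copy, so which copies hold a peak is uncertain, and 582 members lay outside the run.

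The 17 peaks within 1 kb of the 3′ end only lay at 16 genes of 1802 to 20147 bp with a median of 5149 bp, against 23634 bp for all member genes. They included the transcription factor genes Hand2, Hmx3, Foxa1, Foxl2, Tlx3 and Hes7, the hair gene Tchh, Cdkn2a, the stress hormone gene Gdf15 and the water channel gene Aqp2. Of the 17 peaks 1 had a long noncoding RNA border within 1 kb, and 9 lay at genes with another induced peak. Over all 590 members a long noncoding RNA border lay within 1 kb of 126 (21.4%, 18.1 to 24.9) and a microRNA border within 1 kb of 11 (1.86%), among them Mir152 beside Copz2, Mir615 beside Hoxc5, and Mir130b and Mir301b beside 2610318N02Rik. Such shares were not counted for other peaks or for all coding genes, so no excess or lack can be read from them. Members lay on every autosome, 18 to 50 per chromosome, and 0 lay on X. Few peaks of either list lay there at all, 2 of the 1078 strong induced-only peaks, 14 of the 5497 induced peaks (0.255%) and 47 of the 10532 non-induced peaks (0.446%), although X holds 966 of the 21631 coding genes (4.47%).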
